A study of Homo sapiens with 16 samples.

Results

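The subject is the general machinery of mRNA decay, 52 human genes chosen by name as subunits, adaptors and enzymes of deadenylation, decapping, exonucleolytic decay and nonsense-mediated decay (NMD). All 52 were found among the 14857 genes measured, and each is accounted for below. Tristetraprolin (TTP, gene ZFP36) binds AU-rich elements in the 3′ untranslated region (3′ UTR) of an mRNA and recruits the CCR4-NOT deadenylase, which shortens the poly(A) tail. A deadenylated mRNA is then decapped and degraded from the 5′ end by XRN1, or degraded from the 3′ end by the RNA exosome with the SKI complex. NMD uses UPF1 and its partners to remove mRNAs with premature stop codons, and the miRNA pathway reaches CCR4-NOT through AGO and TNRC6 proteins. The question here was whether these effectors are themselves present at different levels in cells with reintroduced TTP.

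RNA-seq was made on MDA-MB-231, a line of triple-negative breast cancer with mesenchymal features. All cells carried a stably transfected tet-off system, in which doxycycline keeps the introduced gene silent, and all were grown with G418 and hygromycin B. The clones EV_A and EV_B received an empty vector, and the clones TTP_E11 and TTP_H3 received TTP. Doxycycline at 2 µg/mL was stated only for the maintenance of TTP cells. It was washed out together with the selection drugs for at least 24 h before experiments, so TTP, clonal origin and earlier doxycycline cannot be told apart. Each clone had 4 libraries, described as biological quadruplicates, so p-values reflect culture-to-culture variation and leave out variation from clone to clone. Below, clone means ± SD (n = 4 per clone) are listed in clone order, which is EV_A, EV_B, TTP_E11, TTP_H3.

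The libraries had 14380767 to 22066098 reads on the listed genes. Groups follow the library names, because 7 titles of TTP libraries say EV. ZFP36 was checked first, in normalized counts (reads divided by the size factor of the library). It stood at 282.2, 226.5, 247.7 and 277.8 in EV_A and at 213.5, 234, 222.6 and 218.2 in EV_B. In TTP_E11 it stood at 10940, 10160, 10320 and 10510, and in TTP_H3 at 14990, 14100, 13340 and 15040. Every library named TTP was far above every library named EV. The 10 mesenchymal markers examined were all measured, with a summed level of 147400 to 150300 in EV and 118300 to 125200 in TTP libraries, with 2 higher and 7 lower in TTP. Of 12 luminal markers 7 were measured, with a summed level of 26280 to 35070 over all libraries and a median difference of -0.25 (0 higher, 6 lower in TTP), and ESR1, PGR, FOXA1 and CDH1 were not among the genes analysed. Of 12 markers of immune, endothelial and kidney cells 5 were measured and summed to 1061 to 1297 in all libraries. In TTP 2 of these were higher and 2 lower, all 4 in every pairing of a TTP with an EV clone, with differences from -1.173 to 1.496. The part of these markers in the results was not tested, and PTPRC, CD3E, PECAM1, CDH5, VWF and PAX2 were not among the genes analysed. Mitochondrial genes took 3.52% to 3.97% of reads in EV and 3.8% to 4.84% in TTP libraries, and the part of this share in the results was not tested. EV_B replicate 4 and TTP_H3 replicate 3 stood apart from the other libraries of their clones.

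Members of the machinery differed about as often as genes of at least the lowest member level, and mostly by little. With all 16 libraries in 1 limma fit and Benjamini-Hochberg adjustment over all genes, 41 of 52 members passed an adjusted p of 0.05 between TTP and EV clones, 23 higher and 18 lower in TTP, where 70.0% of all genes passed. Among the 11136 genes with a mean at least that of the lowest member, 77.3% passed, against 78.8% of the members. The median difference of the members was 0.02 on the log2 scale and that of all genes 0.00. The median size of the difference, regardless of sign, was 0.16 in members, 0.26 in all genes and 0.23 in the 11136 genes. The floor of that set is the level of DCP1B, and its genes were not otherwise matched to the members. Only BTG3 and TOB1 passed with at least a 1.5-fold difference, which is 3.85% of members against 17.7% of all genes and 13.4% of the 11136 genes. At 1.25-fold or more 12 members passed, or 23.1%, against 38.1% of all genes. The 52 members took 0.334% to 0.349% of the reads in EV and 0.347% to 0.369% in TTP libraries. In bulk RNA, a change in all cells and a change in some of them cannot be told apart. Without EV_B replicate 4 and TTP_H3 replicate 3, 42 members passed, 23 higher and 19 lower, where 71.3% of all genes passed. With values averaged per clone, so that 2 clones stood against 2, 10 members passed, or 19.2%, against 29.6% of all genes. These were BTG3, TOB1, EXOSC9, EXOSC6 and TTC37 (lower) and EDC3, UPF3B, EXOSC2, EXOSC5 and EXOSC10 (higher).

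**Figure D1:**
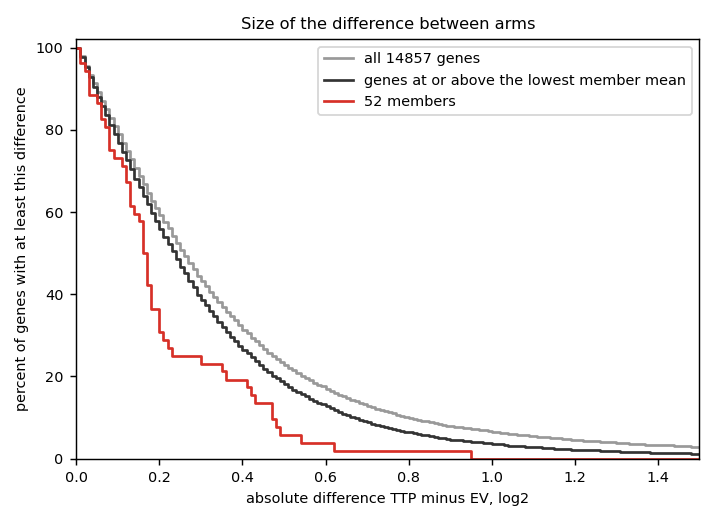
Percent of genes (vertical axis) whose absolute log2 difference between TTP and EV clones was at least the value on the horizontal axis, for all 14857 genes (grey), the 11136 genes with a mean at least that of the lowest member (black) and the 52 members (red). The member line lies below the other lines over most of the axis, with medians of 0.16, 0.23 and 0.26 for the members, the 11136 genes and all genes.

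Each TTP clone was then set against each EV clone, and a member that passed 4 times out of 4 with a constant sign is termed concordant. There were 16 concordant members, 8 higher and 8 lower, or 30.8%, against 38.5% of all genes and 45.1% of the 11136 genes. Lower in TTP were BTG3, TOB1, EXOSC9, EXOSC6, TTC37, DIS3L2, CNOT8 and DDX6. Higher were EDC3, UPF3B, EXOSC2, EXOSC5, EXOSC10, CNOT10, SKIV2L and CNOT2. The split depended on the scaling: with upper-quartile factors it was 15 higher and 5 lower, while over all genes it moved from 2818 higher and 2895 lower to 3289 and 2477. Without EV_B replicate 1 the split was 5 higher and 6 lower, while 5431 of all genes were concordant, 2748 of them lower. Without EV_B replicate 4 and TTP_H3 replicate 3 together the split of the members was 11 and 8, and that of all genes is not given here. The 8 TTP and 8 EV libraries did not overlap at all for 13 members (25.0%), against 31.8% of all genes. These were the concordant members other than CNOT8, DDX6 and CNOT2. By the adjusted p of the authors' deposited table, 22 members rose and 15 fell, where 63.7% of all genes were called. All 37 members were called with the same sign here. The calls of CNOT7, DCP2, XRN2 and UPF1 were made here and not there.

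**Figure D2:**
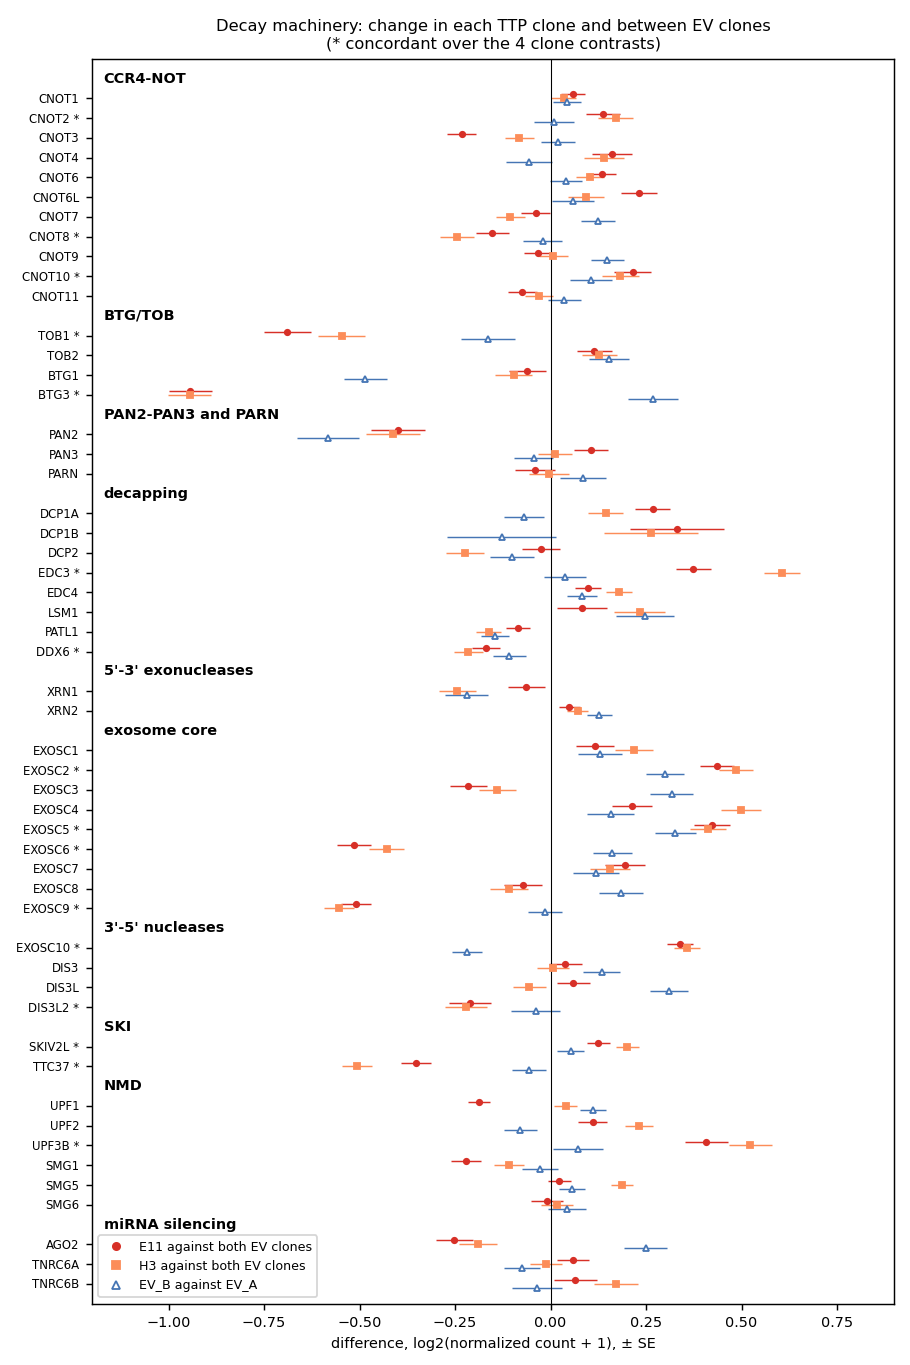
Difference on the log2(normalized count + 1) scale, with its standard error, for each member in TTP_E11 against both EV clones (red circles), TTP_H3 against both EV clones (orange squares) and EV_B against EV_A (open blue triangles), ordered by role. BTG3 and TOB1 lie farthest to the left in both TTP clones, and EDC3 farthest to the right in TTP_H3. For several members, among them PAN2, BTG1, EXOSC3 and DIS3L, the difference between the EV clones is larger than that of either TTP clone.

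TTP binds the RNA heptamer UAUUUAU, so the DNA word TATTTAT was searched on the sense strand of the longest annotated 3′ UTR of each gene (GENCODE 29, GRCh38), counting overlapping matches. It was present in 23 of 52 members (44.2%) and in 4443 of 12564 genes with an annotated 3′ UTR (35.4%). Sites of the concordant members with a match are shown in their surroundings, because these members carry the differences described below, with both sites of BTG3 and CNOT2 and the site nearest the stop codon for the others. The sense strand is written 5′ to 3′, and capitals mark the heptamer.
BTG3 chr21:17593830-17593859, minus strand: ttggacttgagTATTTATatattgtgcatc
BTG3 chr21:17593726-17593755, minus strand: cgtatgtaagtTATTTATatacaaggaaat
EXOSC9 chr4:121816888-121816911, plus strand: attaaaagggaTATTTATtccatt
EXOSC6 chr16:70250173-70250202, minus strand: cattcatttgcTATTTATtctcttctggct
TTC37 chr5:95464493-95464522, minus strand: tttttaaactaTATTTATtccttttctaaa
CNOT8 chr5:154876731-154876760, plus strand: cttgtaaatacTATTTATgtttttaatttt
CNOT2 chr12:70345164-70345193, plus strand: ctattagtaatTATTTATgaccttatgatt
CNOT2 chr12:70345457-70345486, plus strand: ttttcatatttTATTTATgtcttaaaaact
EXOSC6 held 6 matches in all, of which 3 lie so close together that their windows overlap, and TTC37 held 3. The EXOSC9 site lies in a short 3′ UTR of 55 bases that belongs to 1 annotated transcript. TOB1, DIS3L2 and DDX6, the other concordant lower members, had no match in the 3′ UTR examined, and of the 8 concordant higher members only CNOT2 had any, with 2.

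Matches were more common among members that were lower. They were present in 13 of 18 lower members (72.2%) and in 6 of 23 higher members (26.1%). Over all genes the shares were 47.8% of the lower and 24.7% of the higher genes. Median 3′ UTR length differed in the same way, at 1820 bases in lower and 1120 in higher members, and at 1690 and 1150 over all genes, so a longer 3′ UTR and a match cannot be told apart here. The 29 members with no match had a median difference of 0.14, with 17 higher and 5 lower. All 8121 genes with no match had a median of 0.07, with 3626 higher and 2416 lower. The 17 members with 1 or 2 matches had a median of -0.07, with 6 higher and 8 lower. The 6 members with 3 or more had a median of -0.19, with 0 higher and 5 lower. DIS3 was the member of this group that did not pass. Over all genes, 866 had 3 or more matches, with a median of -0.16, 194 higher and 489 lower. Median 3′ UTR length was 903 bases in members with no match and 6200 in those with 3 or more. Over all genes it was 919 and 4500. A match is a string in an annotation and was not tested as a binding site.

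**Figure D3:**
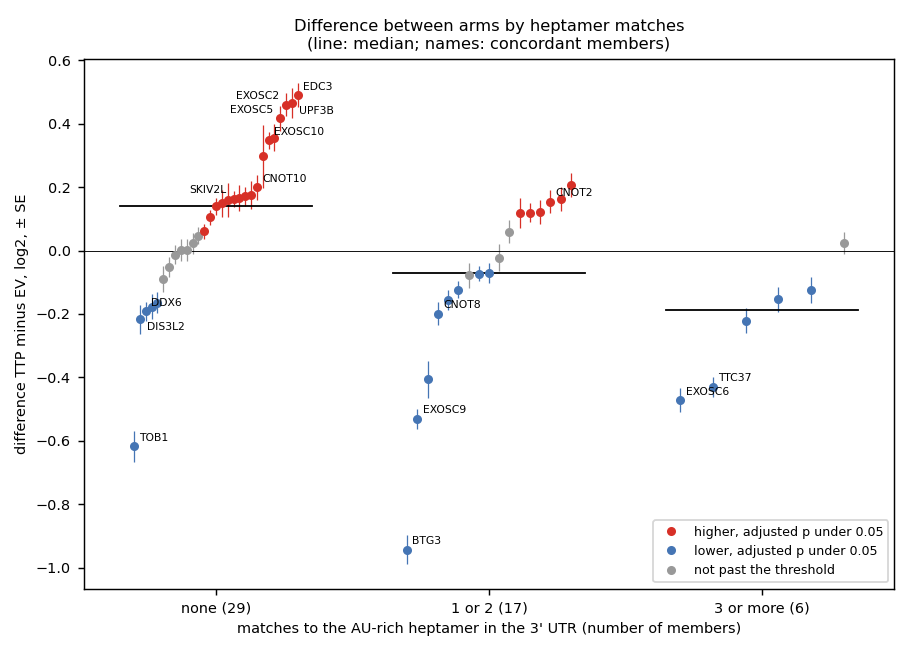
Difference between TTP and EV clones on the log2 scale, with its standard error, for each member, grouped by the number of heptamer matches in the longest annotated 3′ UTR; horizontal lines are medians (0.14, -0.07 and -0.19) and names mark concordant members. BTG3 with 2 matches is the lowest member, TOB1 without a match is the next, and all members above 0.3 have no match.

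The BTG/TOB adaptors, which bind the CNOT7 and CNOT8 deadenylases and restrain proliferation, held the largest differences of the set. BTG3 (chromosome 21, 17593653 to 17612947, minus strand) stood at 399.2, 438.1, 456.4 and 418.9 normalized counts in EV_A and at 530.4, 506.1, 508 and 514.4 in EV_B. In TTP_E11 it stood at 235.7, 236.4, 246.6 and 256.2, and in TTP_H3 at 245.3, 248.6, 229.4 and 250. The arms did not overlap, and both TTP clones lay at the same level while EV_B was above EV_A. BTG3 fell by 0.94 on the log2 scale (SE 0.0462, limma adjusted p = 3.01e-18). TOB1 (chromosome 17, 50862223 to 50867978, minus strand) stood at 501.7, 489.2, 472 and 485.5 in EV_A and at 462.2, 432, 441.4 and 404.3 in EV_B. Its levels were 304.7, 287.4, 299.4 and 251.6 in TTP_E11 and 320, 340.2, 282.3 and 318.6 in TTP_H3. The lowest EV library was thus above the highest TTP library, and TOB1 fell by 0.62 (SE 0.05, limma adjusted p = 9.9e-13). The exons of BTG3 and TOB1 share 280 and 281 bases with antisense genes of the other strand, and no strand setting of the counting is given in the sources used here. The part of the antisense genes in these values was not tested.

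The paralogs of these adaptors did otherwise. TOB2 rose by 0.12 in TTP (limma adjusted p = 0.00417), but with EV_B alone as control the difference was 0.04 (adjusted p = 0.399). BTG1 did not pass (-0.08, 95% confidence interval -0.16 to 0.003, limma adjusted p = 0.0795), and in clone order it was at 1629 ± 69.7, 1166 ± 102.3, 1319 ± 58.4 and 1290 ± 93.5 (SD, n = 4 per clone), so the TTP clones lay between the EV clones. Without EV_B replicate 4 BTG1 passed at -0.11 (adjusted p = 0.00459) and without TTP_H3 replicate 3 at -0.10 (adjusted p = 0.011), and it was -0.32 against EV_A alone (adjusted p = 1.25e-06) and 0.16 against EV_B alone (adjusted p = 0.00427). Ratios within a library do not depend on the size factor except through the added 1. The log2 ratio of TOB1 to TOB2 ran from -1.01 to -0.46 in EV and from -1.70 to -1.29 in TTP libraries. That of BTG1 to BTG3 ran from 0.98 to 2.02 in EV and from 2.29 to 2.62 in TTP libraries. In both pairs all 8 TTP libraries lay on 1 side of all 8 EV libraries (exact two-sided permutation test, p = 0.000155, the smallest it can give, adjusted p = 0.000544 over 7 pairs). The test permutes libraries, so it leaves out variation from clone to clone. In clone order the mean ratio of TOB1 to TOB2 was -0.53, -0.85, -1.49 and -1.36. That of BTG1 to BTG3 was 1.93, 1.17, 2.43 and 2.40, so the EV clones also differed from each other.

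**Figure D4:**
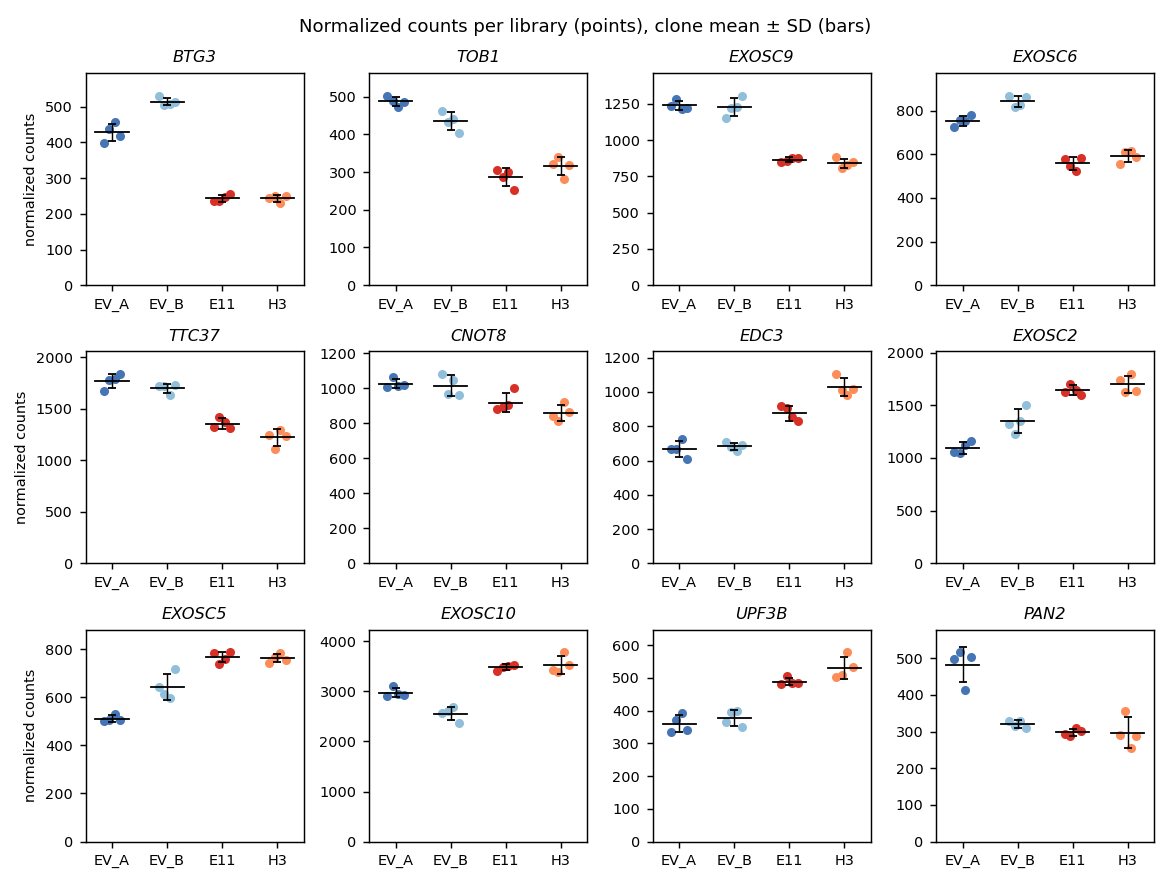
Normalized counts of 12 members in each of the 16 libraries (points), with the mean and SD of each clone (bars); each panel has its own vertical axis, which starts at 0. The top row and TTC37 fall in both TTP clones, EDC3, EXOSC2, EXOSC5, EXOSC10 and UPF3B rise, CNOT8 has overlapping arms, and PAN2 in EV_B lies near the TTP clones.

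CCR4-NOT itself showed small differences. Of its 11 members 5 were higher and 3 lower, against 35.4% and 34.6% of all genes, with differences from -0.20 to 0.20. The scaffold CNOT1, on which the complex is built, was at 3887 ± 118, 4008 ± 80.7, 4114 ± 167 and 4044 ± 193 in clone order (SD, n = 4 per clone). Its difference was 0.05 (95% confidence interval -0.01 to 0.10, limma adjusted p = 0.106), and it passed with upper-quartile scaling at 0.09 (adjusted p = 0.00253) and without TTP_E11 replicate 4 at 0.06 (adjusted p = 0.0457). Among the catalytic subunits, CNOT8 stood at 1010, 1066, 1014 and 1018 in EV_A and at 1081, 966.7, 1047 and 961 in EV_B. Its levels were 881.4, 890.7, 904.3 and 999.1 in TTP_E11, and 840.8, 814.5, 922.7 and 865.7 in TTP_H3. Replicate 4 of TTP_E11 reached into the EV range, and CNOT8 fell by 0.20 (limma adjusted p = 1.22e-05). CNOT7, its near copy, was at -0.07 (limma adjusted p = 0.0407). That call was lost with edgeR (adjusted p = 0.0612), with DESeq2 (adjusted p = 0.0525), with TMM or upper-quartile scaling, without EV_B replicate 4 and TTP_H3 replicate 3 together (adjusted p = 0.101), and in 10 of the 16 fits without a single library.

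The other pair of catalytic subunits rose slightly. CNOT6 rose by 0.12 (limma adjusted p = 0.000656) and CNOT6L by 0.16 (limma adjusted p = 0.000364). The ratio of CNOT6 to CNOT6L was 0.96 in EV and 0.91 in TTP on the log2 scale (exact permutation p = 0.258, adjusted p = 0.32 over 7 pairs). The ratio of CNOT7 to CNOT8 was 0.61 in EV and 0.74 in TTP (exact permutation p = 0.0555, adjusted p = 0.129 over 7 pairs), and it passed without TTP_E11 replicate 4 at a difference of 0.16 (adjusted p = 0.0286). CNOT2 and CNOT10, which belong to the scaffold modules of the complex, rose by 0.15 and 0.20 and were concordant. CNOT10 did not overlap between arms, with at most 572.2 in EV and at least 576.1 in TTP libraries, whereas TTP_E11 replicate 1 brought CNOT2 into the EV range at 807.5. CNOT3 fell by 0.16 (limma adjusted p = 4.01e-05) and CNOT4, a ubiquitin ligase linked to the complex, rose by 0.15 (limma adjusted p = 0.00266). CNOT9, a subunit that binds TNRC6 proteins, and CNOT11 did not pass, with intervals of -0.07 to 0.05 and -0.11 to 0.01, though CNOT9 passed against EV_B alone (-0.09, limma adjusted p = 0.0432).

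**Figure D5:**
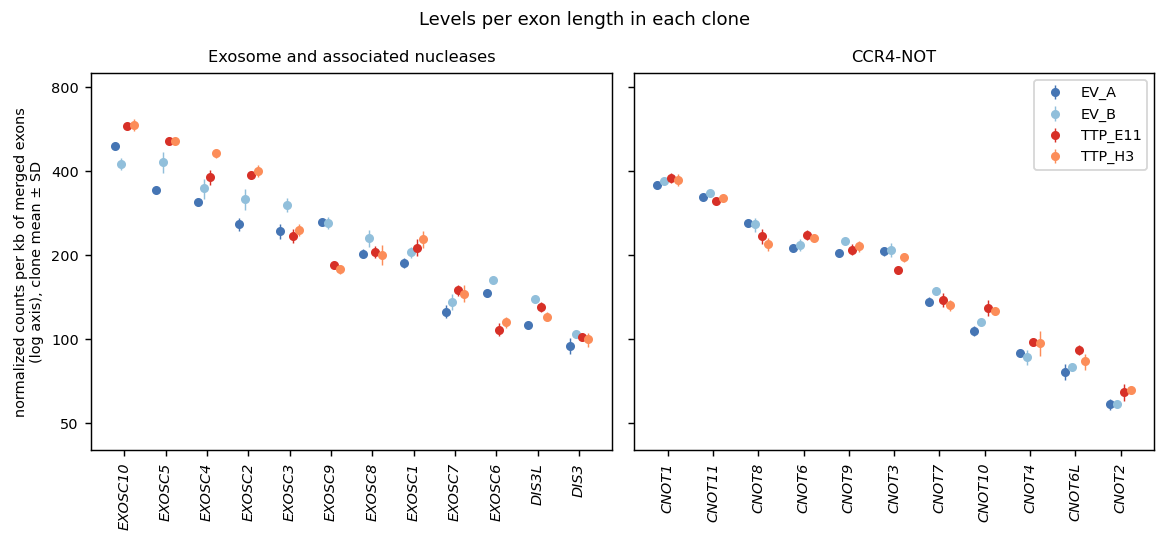
Normalized counts per kb of merged annotated exons (log axis), mean and SD over 4 libraries of each clone, for the exosome with its nucleases (left) and CCR4-NOT (right). In the exosome panel EXOSC5, EXOSC4 and EXOSC2 are higher and EXOSC9 and EXOSC6 lower in TTP, and in the CCR4-NOT panel the differences between arms lie between -0.20 and 0.20 on the log2 scale.

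The other deadenylases showed how far control clones alone can differ. PAN2, the catalytic subunit of PAN2-PAN3, stood at 499.3, 516.1, 412.2 and 502.4 in EV_A and at 330.1, 314.5, 329.2 and 309.4 in EV_B. In TTP_E11 it stood at 292.1, 287.4, 310.1 and 300.5, and in TTP_H3 at 289.7, 355.1, 255.4 and 287.1. EV_A was above the other 3 clones, and EV_B overlapped with TTP_H3. The averaged difference of -0.41 passed (limma adjusted p = 1.9e-07), but it was smaller than that between EV_B and EV_A (-0.58, limma adjusted p = 1.13e-06), and against EV_B alone it was -0.12 and did not pass (adjusted p = 0.158). Its partner PAN3 (0.06, 95% confidence interval -0.02 to 0.13) and the deadenylase PARN (-0.02, 95% confidence interval -0.11 to 0.06) did not pass. With upper-quartile scaling PAN3 passed at 0.10 (adjusted p = 0.0147).

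All 8 decapping factors passed, 5 higher and 3 lower, where 70.0% of all genes passed (77.3% of those with at least the lowest member mean). EDC3, an enhancer of decapping that scaffolds P-bodies (chromosome 15, 74630558 to 74696292, minus strand), had the largest rise among the 52 members. It stood at 664.6, 670.2, 727.4 and 607.1 in EV_A and at 708.6, 677.7, 658.3 and 691.1 in EV_B. The TTP_E11 libraries held 915.3, 906.4, 851.6 and 828.6, and the TTP_H3 libraries held 1104, 1013, 979.6 and 1016. The arms did not overlap, TTP_H3 was above TTP_E11, and EDC3 rose by 0.49 (SE 0.0383, limma adjusted p = 4.31e-13). CLK3 on the other strand shares 701 exonic bases with EDC3, and its part in the difference was not tested. The decapping enzyme DCP2 was lower by a difference of -0.12 (limma adjusted p = 0.00835), a call lost with upper-quartile scaling (adjusted p = 0.0723) and against EV_B alone (-0.07, adjusted p = 0.206). It was lower in TTP_H3 (-0.22, limma adjusted p = 0.000256) and did not pass in TTP_E11 (-0.03, limma adjusted p = 0.687), and the 2 clones differed (-0.20, limma adjusted p = 0.0231). Its activators DCP1A and DCP1B rose by 0.21 and 0.30. DCP1B was the least abundant member, at 76.8, 70.2, 92.7 and 88.8 in EV_A, EV_B, TTP_E11 and TTP_H3, and did not pass against EV_A alone (adjusted p = 0.0944). DDX6, the helicase that joins CCR4-NOT to decapping, and PATL1, which bridges it to the LSM ring, fell by 0.19 and 0.12, though PATL1 did not pass against EV_B alone (-0.05, adjusted p = 0.175). The scaffold EDC4 and the LSM ring subunit LSM1 rose by 0.14 and 0.16, and LSM1 did not pass against EV_B alone (0.04, limma adjusted p = 0.659). EDC4 shares 1311 exonic bases (21.2% of its own) with a noncoding gene of the same strand. LSM1 shares 452 (26.7%) with an antisense gene. The part of these genes was not tested, and overlaps of other members are not all listed here.

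Of the exonucleases that degrade from the 5′ end, the cytoplasmic XRN1 was lower and the nuclear XRN2 higher, each by little. In clone order, XRN1 ranged from 644.2 to 714, from 564.1 to 603, from 563.1 to 628.2 and from 505.8 to 561.5. TTP_H3 lay below all EV libraries, whereas TTP_E11 overlapped with EV_B. The averaged difference was -0.15 (limma adjusted p = 0.000807), and against EV_B alone it was -0.04 and did not pass (adjusted p = 0.438). XRN2 differed by 0.06 (limma adjusted p = 0.0203), and against EV_B alone the sign turned, at -0.004 (adjusted p = 0.918).

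The core of the exosome is a ring of 6 subunits, EXOSC4 to EXOSC9, topped by the RNA-binding cap subunits EXOSC1, EXOSC2 and EXOSC3. Of these 9 genes 5 were higher, 3 lower and 1 did not pass, a split near that of all genes, of which 35.4% were higher and 34.6% lower. EXOSC2 stood at 1053, 1043, 1119 and 1162 in EV_A and at 1320, 1225, 1348 and 1506 in EV_B. The TTP_E11 libraries held 1622, 1706, 1647 and 1593, and those of TTP_H3 held 1741, 1622, 1795 and 1639. It rose by 0.46 (SE 0.0357, limma adjusted p = 3.48e-13) with no overlap between arms, and EV_B was above EV_A by 0.30 (limma adjusted p = 1.83e-05). EXOSC5 stood at 500.5, 506.8, 531.7 and 505 in EV_A and at 643.7, 612, 596.5 and 718.4 in EV_B. In TTP_E11 it stood at 783.6, 739.6, 759.6 and 786.2, and in TTP_H3 at 741.8, 768.6, 783.1 and 754.6. It rose by 0.42 (SE 0.0385, limma adjusted p = 2.16e-11), and the EV_B library nearest to the TTP clones was replicate 4.

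EXOSC9 (chromosome 4, 121801317 to 121817021, plus strand) went the other way. It stood at 1239, 1284, 1213 and 1222 in EV_A and at 1156, 1221, 1230 and 1305 in EV_B. The TTP_E11 libraries held 848.8, 859.3, 876.6 and 880.2, and the TTP_H3 libraries held 881.1, 806.4, 828 and 847.6. The EV clones did not pass against each other (-0.01, limma adjusted p = 0.835), the arms were far apart, and EXOSC9 fell by 0.53 (SE 0.0317, limma adjusted p = 5.09e-16). CCNA2, which encodes cyclin A2, shares 254 exonic bases (5.39% of those of EXOSC9) on the other strand. In clone order it was at 4126 ± 100, 4366 ± 111, 2566 ± 35.9 and 2581 ± 72.0 (SD, n = 4 per clone), and its part in the EXOSC9 values was not tested. EXOSC6 (chromosome 16, 70246778 to 70251930, minus strand) stood at 724.9, 757.5, 754.3 and 780.2 in EV_A and at 868.2, 816.4, 828.6 and 861.3 in EV_B. Its levels were 580.5, 546.4, 522.8 and 583.4 in TTP_E11 and 555.1, 609.4, 617.5 and 588.6 in TTP_H3. The arms did not overlap, and EXOSC6 fell by 0.47 (SE 0.0369, limma adjusted p = 4.16e-13).

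The remaining core subunits differed less or with the clone. EXOSC4 rose by 0.36 (limma adjusted p = 7.82e-09), with clone means of 437.4 ± 15.8, 488.9 ± 39.99, 536.6 ± 32.2 and 652.7 ± 22.1 in clone order (SD, n = 4 per clone). EXOSC1 and EXOSC7 rose by 0.17 and 0.18, and neither passed against EV_B alone (adjusted p = 0.0748 and 0.0528, limma). EXOSC3 was lower by a difference of -0.18 (limma adjusted p = 0.00022), but EV_B stood alone. In clone order it was at 736.6 ± 46.5, 917.7 ± 56.4, 708.3 ± 40.1 and 746.1 ± 37.8 (SD, n = 4 per clone). Against EV_A alone the difference of EXOSC3 was -0.02 (adjusted p = 0.756). EXOSC8 was just outside the threshold (-0.09, 95% confidence interval -0.17 to -0.01, limma adjusted p = 0.0509), and it passed against EV_B alone (-0.18, adjusted p = 0.0021), with only genes of a mean of at least 50 tested (adjusted p = 0.0487), and without EV_B replicate 4 and TTP_H3 replicate 3 together (adjusted p = 0.0165). The single fits without EV_A replicate 1, EV_B replicate 1, EV_B replicate 2, TTP_E11 replicate 4 or TTP_H3 replicate 3 also called it.

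Of the 4 nucleases of this group 1 was higher and 1 lower, against 35.4% and 34.6% of all genes. EXOSC10, the nuclear exonuclease of the exosome (chromosome 1, 11066618 to 11099881, minus strand), stood at 2908, 3108, 2948 and 2922 in EV_A and at 2568, 2614, 2679 and 2366 in EV_B. In TTP_E11 it stood at 3403, 3497, 3505 and 3529, and in TTP_H3 at 3425, 3386, 3781 and 3520. The TTP clones were level with each other, EV_B was below EV_A by 0.22, and EXOSC10 rose by 0.35 (SE 0.0277, limma adjusted p = 6.99e-13). An antisense gene, which has no value in the table, shares 2196 exonic bases with EXOSC10 (36.6% of them), and its part was not tested. DIS3, the main catalytic subunit of the exosome, did not pass (0.02, 95% confidence interval -0.05 to 0.09). Its cytoplasmic relative DIS3L was at 0.00 (95% confidence interval -0.07 to 0.07), but against EV_A alone it was 0.16 (limma adjusted p = 0.00177) and against EV_B alone -0.15 (limma adjusted p = 0.00259), since the EV clones differed by 0.31. DIS3L2, which degrades uridylated RNA without the exosome, fell by 0.22 (limma adjusted p = 7.51e-05), with at least 441.3 in EV and at most 437 in TTP libraries.

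Per kb of merged annotated exons, the levels of exosome subunits spanned a wide range. EXOSC10 was highest in EV_A and both TTP clones, at 495, 425.9, 580.3 and 587.7 normalized counts per kb in EV_A, EV_B, TTP_E11 and TTP_H3, and in EV_B it was level with EXOSC5 at 431.9. DIS3 was at 94.8, 104, 101.9 and 99.8, the lowest of the exosome genes. EXOSC9 was at 263.1, 260.7, 183.9 and 178.5 per kb in clone order, and EXOSC2 at 258.1, 318.4, 387.3 and 400.8. In EV_A these levels of EXOSC2 and EXOSC9 were near each other, and in TTP clones EXOSC2 was above EXOSC9. Within CCR4-NOT the level per kb was highest for CNOT1 (358.2 to 379.1 over the clones), and CNOT8 was above CNOT7 in each clone, at 219.1 to 261.3 against 132.5 to 148.8. Lengths come from all annotated transcripts merged, so a gene with long rare isoforms appears lower.

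Of the SKI complex, which feeds cytoplasmic mRNA to the exosome, 1 measured subunit here was lower and 1 higher. TTC37, its tetratricopeptide scaffold (chromosome 5, 95461755 to 95555007, minus strand), stood at 1674, 1777, 1793 and 1838 in EV_A and at 1722, 1721, 1633 and 1728 in EV_B. The TTP_E11 libraries held 1323, 1421, 1377 and 1312, and the TTP_H3 libraries held 1250, 1110, 1292 and 1239. All TTP libraries were below all EV libraries, and TTC37 fell by 0.43 (SE 0.0317, limma adjusted p = 1.06e-13). SKIV2L, the helicase, ranged from 2208 to 2472 in EV and from 2539 to 2762 in TTP libraries. It rose by 0.16 (SE 0.0248, limma adjusted p = 6.5e-07).

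Among the 6 NMD factors 3 were higher and 2 lower, against 35.4% and 34.6% of all genes. UPF3B, which links UPF2 to the exon junction complex (chromosome X, 119805311 to 119852998, minus strand), stood at 335.3, 370.4, 391.4 and 341.7 in EV_A and at 365.3, 396, 399.6 and 349.8 in EV_B. The TTP_E11 libraries held 481.5, 504.2, 484.3 and 483.9, and the TTP_H3 libraries held 502.6, 507.5, 577.6 and 531.7. The EV clones were alike in range, all TTP libraries were above them, and UPF3B rose by 0.47 (SE 0.0462, limma adjusted p = 1.16e-10). UPF1, the central helicase, was the most abundant member by count. In clone order it ranged from 4944 to 5069, from 5240 to 5832, from 4506 to 4759 and from 5195 to 5606, so TTP_E11 was below all other clones and TTP_H3 was not. Its averaged difference of -0.07 (limma adjusted p = 0.008) was lost against EV_A alone (-0.02, adjusted p = 0.608), with upper-quartile scaling (adjusted p = 0.237) and in a model with 2 groups and no clones (adjusted p = 0.191). UPF2 rose by 0.17, SMG5 rose by 0.10 and the kinase SMG1 fell by 0.16. SMG1 has 7 named pseudogenes whose reads may be confused with its own. The endonuclease SMG6 did not pass (0.00, 95% confidence interval -0.07 to 0.07), and HIC1 on the other strand shares 2419 of its exonic bases.

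A list of 27 transcripts reported as sensitive to NMD was read beside these factors, 5 of them members themselves. Of the 22 others, 8 were higher and 10 lower in TTP, where 35.4% and 34.6% of all genes were higher and lower. The median difference of these 22 was -0.05. Among them 2 were concordant higher and 9 concordant lower, against 19.0% and 19.5% of all genes. The noncoding hosts of small nucleolar RNAs SNHG5 and GAS5 rose by 0.44 each. SNHG5 was at 2610 ± 62.2, 3204 ± 151, 4169 ± 107 and 3692 ± 81.2 in clone order (SD, n = 4 per clone). ASNS, asparagine synthetase, averaged 0.53 higher (limma adjusted p = 1.29e-10), but its clone means, in clone order, were 702.7 ± 35.5, 1142 ± 104, 1453 ± 90.6 and 1154 ± 109 (SD, n = 4 per clone), with EV_B and TTP_H3 level. ATF3, a stress transcription factor, rose by 0.39 and did not pass against EV_A alone (adjusted p = 0.369). GADD45A, a growth arrest gene, fell by 0.42 and was at 1799 ± 55.1, 1591 ± 70.3, 1240 ± 35.1 and 1293 ± 42.5 in clone order (SD, n = 4 per clone). DDIT3, another stress transcription factor, fell by 0.35, UPP1, uridine phosphorylase, by 0.30, TBL2 by 0.28 and the splicing factor SRSF2 by 0.28. Concordant in this list, with the members left in, were 3 higher and 9 lower, against the same 19.0% and 19.5% of all genes.

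The 3 miRNA silencing factors shared no direction. AGO2, the slicing Argonaute, fell by 0.22 (limma adjusted p = 3.38e-05), but it was at 2032 ± 99.8 in EV_A and 2416 ± 158 in EV_B, and against EV_A alone it did not pass (-0.10, adjusted p = 0.0867). TNRC6A did not pass (0.02, 95% confidence interval -0.05 to 0.09). TNRC6B, like TNRC6A a scaffold that recruits CCR4-NOT, was at 0.12 (limma adjusted p = 0.0239), a call lost against EV_A alone (adjusted p = 0.117) and without EV_A replicate 3 (adjusted p = 0.0705), TTP_E11 replicate 2 (adjusted p = 0.058), TTP_E11 replicate 3 (adjusted p = 0.0561) or TTP_H3 replicate 2 (adjusted p = 0.0781). Log2 ratios of TNRC6A to TNRC6B, of DCP1A to DCP1B and of DIS3 to DIS3L differed between arms by -0.09, -0.09 and 0.02 (exact permutation adjusted p = 0.306, 0.32 and 0.708 over 7 pairs).

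Of 57 measured genes on a list of other decay factors (LSM and exon junction subunits, poly(A)-binding proteins, tailing enzymes, further Argonautes and adaptors), 19 were higher and 22 lower, with a median difference of -0.02 and with 5 and 11 concordant. Over all genes 35.4% were higher and 34.6% lower, and 19.0% and 19.5% were concordant. MAGOHB, a core protein of the exon junction complex, fell by 0.76 and was at 337.4 ± 15.9, 397.8 ± 29.4, 212.6 ± 14.6 and 219.9 ± 17.9 in clone order (SD, n = 4 per clone). C1D, a cofactor of EXOSC10 in the nucleus, fell by 0.64, PAPD7, a noncanonical poly(A) polymerase, by 0.56, RC3H2, the roquin paralog that binds stem-loop decay elements, by 0.42, and PAIP1, a partner of poly(A)-binding protein, by 0.35. BTG2, another antiproliferative BTG adaptor, rose by 0.55 without being concordant, at 122.4 ± 12.5, 95.5 ± 2.48, 186.9 ± 5.22 and 135.8 ± 22.2 in clone order (SD, n = 4 per clone). TNKS1BP1, which binds CCR4-NOT, rose by 0.48, the LSM ring subunits LSM7 and LSM2 by 0.47 and 0.38, and EIF4ENIF1, which binds the cap-binding protein eIF4E, by 0.30.

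Each TTP clone was also compared with both EV clones. In TTP_E11 35 members passed, against 64.6% of all genes, with 20 higher and 15 lower against 32.6% and 32.0%. In TTP_H3 37 passed, against 64.7%, with 21 higher and 16 lower against 32.7% and 32.0%. These comparisons share their EV libraries. Between the TTP clones 8 members differed, 5 higher and 3 lower in TTP_H3, or 15.4%, against 11.7% of all genes (6.35% higher, 5.32% lower). Higher in TTP_H3 were EXOSC4 by 0.28 (limma adjusted p = 0.00178), EDC3 by 0.23 (0.00413), UPF1 by 0.23 (2.17e-05), SMG5 and CNOT3, and lower were DCP2 (-0.20), XRN1 (-0.18, limma adjusted p = 0.029) and TTC37 (-0.15, limma adjusted p = 0.0227). Without TTP_E11 replicate 2 or without TTP_H3 replicate 2 no member was lower and 4 differed in all, and without TTP_E11 replicate 3 a total of 5 differed, of which 1 was lower. ZFP36 was itself higher in TTP_H3, at 14370 ± 811 against 10480 ± 337 (SD, n = 4 per clone).

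The EV clones differed in 22 members, 16 higher and 6 lower in EV_B, or 42.3%, against 36.8% of all genes (20.2% higher, 16.6% lower). Without EV_B replicate 4, which stood apart, 10 were higher, and the share of all genes without that library was not computed. Higher in EV_B were 6 of the 9 core subunits of the exosome, with EXOSC5 at 0.33, EXOSC3 at 0.32 and EXOSC2 at 0.30, and the nuclease DIS3L at 0.31. Lower in EV_B were PAN2 (-0.58), BTG1 (-0.48) and XRN1 (-0.22). Over all 52 members the median size of the difference between EV clones was 0.11, against 0.16 between TTP and EV clones. Over all genes these medians were 0.15 and 0.26. The first sets 1 clone against 1, and the second averages 2 clones on each side, so the sizes are not directly comparable.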

How the data were processed

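RNA was sequenced from 16 libraries of 4 clones. The submitters' processing notes list DESeq2, STAR 2.5.2b, Trimmomatic 0.36, Subread 1.5.2 with featureCounts, and GRCh38. Roles, strand setting and annotation are not given in the sources used here. A single deposited table holds a signal per gene and library that the authors had normalized. Its values are reads over a library size factor, since 100% of them, in every library, are integer multiples of its smallest value within 0.001. Per the file headers the table also gives the authors' log2 fold change and p-value of TTP against EV. Its lowest gene mean was 9.68, and genes under such a level are not analysed here.

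Differences were computed on log2(value + 1) with limma 3.58.1 in R 4.3.3 (robust trend), which understates those of low genes, in 1 fit of all libraries with a term per clone and Benjamini-Hochberg adjustment over all 14857 genes at 0.05. Paralog ratios had exact two-sided permutation tests, which permute libraries and not clones. The scripts were tested on simulated data. Confidence intervals are at 95% and are not adjusted for the number of genes. Alternatives tried were DESeq2 1.42.0 and edgeR 4.0.16 on recovered reads, other scalings, pseudocounts and filters, a 2-group model, clone averages, single EV controls, a replicate block and leaving out libraries. Positions and 3′ UTRs came from GENCODE 29 on GRCh38.

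The members and lists were chosen with earlier results of these data known. Named were ZFP36, the concordant members, the catalytic members and CNOT1, up to 3 members in each direction in the contrasts within an arm, and up to 5 genes in each direction of the 2 other lists. Members outside that rule are given so that all 52 are accounted for. No p-value was adjusted over the members alone, and no set test was run.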

Additional observations from a re-analysis of the deposited data

Results flagged for a closer look

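The screen for libraries that lay apart covered the genes named by the rule given above and left out the members outside that rule. A library lay apart from the other 3 of its clone, by Dixon's criterion, in 14 of 208 clone groups, and chance alone flags about 1 in 20. Among members these were UPF3B in TTP_E11 replicate 2 (504.2 normalized counts), TTC37 in EV_B replicate 3 (1633), CNOT8 in EV_A replicate 2 (1066), DDX6 in TTP_E11 replicate 4 (2508), CNOT7 in EV_B replicate 2 (1553), PAN2 in EV_A replicate 3 (412.2), XRN2 in EV_A replicate 3 (2741), BTG1 in TTP_E11 replicate 2 (1233) and EXOSC4 in EV_B replicate 4 (548.2). Among transcripts reported as sensitive to NMD they were ASNS in EV_B replicate 4 (1298), GAS5 in TTP_E11 replicate 1 (2252), ATF3 in TTP_E11 replicate 4 (153) and in TTP_H3 replicate 3 (190.5), and GADD45A in TTP_H3 replicate 1 (1230).

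The effect against the EV clones differed between TTP_H3 and TTP_E11 for 8 of all 52 members (15.4%, against 11.7% of all genes). It was tested as the contrast of the 2 clones (limma, adjusted over all genes). TTP_H3 minus TTP_E11 on the log2 scale was 0.15 for CNOT3 (adjusted p = 0.0223), -0.20 for DCP2 (adjusted p = 0.0231), 0.23 for EDC3 (adjusted p = 0.00413), -0.18 for XRN1 (adjusted p = 0.029), 0.28 for EXOSC4 (adjusted p = 0.00178), -0.15 for TTC37 (adjusted p = 0.0227), 0.23 for UPF1 (adjusted p = 2.17e-05) and 0.16 for SMG5 (adjusted p = 0.00126).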

How the results depend on the processing

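EDC3, UPF3B, EXOSC2, EXOSC5, EXOSC10, BTG3, EXOSC9, TOB1, EXOSC6 and TTC37 kept their direction and their call under every alternative run, including values averaged per clone, where 10 members passed (5 higher, 5 lower), 10 other decay factors (4 and 6), 8 transcripts sensitive to NMD (3 and 5) and 4395 of all genes (2203 and 2192). Of the 52 member calls, 51 held with edgeR, 51 with DESeq2 and 46 in a model of 2 groups without clones. Upper-quartile scaling, which moved the median of all genes to 0.04, gave 15 concordant higher and 5 concordant lower members and a member median of 0.065. With EV_A alone as control the member median was 0.065, and with EV_B alone 12 other decay factors were higher. Signs turned against EV_B alone for XRN2 (-0.004), DIS3L (-0.153) and BTG1 (0.164). Leaving out single libraries gave 5 to 10 concordant higher members, 10 to 16 members higher in EV_B, 4 to 9 members that differed between TTP clones with 0 to 4 lower in TTP_H3, and a CNOT7/CNOT8 difference of 0.101 to 0.16. Replicate numbers did not pair the libraries: deviations from clone means correlated at -0.0587 to 0.0614 in 24 pairs of equal number, and 5 of 16 libraries correlated best with their own number. With a replicate block 41 members passed (23 higher, 18 lower), where 69.7% of all genes passed. In that fit 17 members were concordant, and the concordant share of all genes is not given here. CNOT7 no longer passed (adjusted p = 0.0503) and EXOSC8 did (adjusted p = 0.039, limma). The causes of these shifts were not tested. With 2 clones an arm, differences between clones are estimated from few values.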
